A study of Mus musculus with 12 samples.

Results

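The Dlk1-Dio3 microRNA cluster on mouse chromosome 12 was described from small RNA counts of isolated heart cells. Its members were taken by position: every row of the deposited small RNA table, on either strand, that starts between Dlk1 and just past Dio3 on genome build mm9. This gave 90 of 850 rows, from 48 of 517 precursors. Both fractions came from 3 hearts of wild-type FVB/NJ females aged 12 weeks, with no transgene and no treatment, and each has 3 libraries for small RNA and 3 for polyadenylated RNA. RNA of the primary isolated cardiomyocytes (FVB-CM) was prepared at once. The nonmyocytes (FVB-fibro), described as mostly fibroblasts, were first grown in culture, for which the labels give both P1 and a second passage. Cell type and culture therefore cannot be told apart in any comparison below. No label ties a library to a heart, so p-values measure the spread between libraries, which may be technical.

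The Dlk1-Dio3 domain is an imprinted region, in which the parental origin of the chromosome decides which genes are read. The protein-coding genes Dlk1, Rtl1 and Dio3 are expressed from the paternal chromosome, and the noncoding RNAs Meg3, anti-Rtl1, Rian and Mirg from the maternal one. Most microRNAs of the region are cut from these maternal transcripts. miR-1247, near Dio3 and on the strand opposite to Meg3, is not one of them. Each hairpin can yield a mature RNA from its 5p and from its 3p arm. A mature microRNA recognises target RNAs mainly through its seed, bases 2 to 8 from the 5′ end. The region is known for high expression in embryonic, placental and brain tissue, and miR-410 and miR-495 of this cluster have been linked to cardiomyocyte proliferation. The precursors of miR-431, miR-433, miR-127, miR-434 and miR-136 lie opposite the single coding exon of Rtl1, and some of these microRNAs are known to cut Rtl1 RNA, to which they are fully complementary.

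The members fall into 3 sub-clusters, separated by gaps of more than 50 kb, over 714.4 kb. Sub-cluster 1 (chr12:110801954-110856536, 54.6 kb) has 27 rows of 14 precursors. It runs from miR-770, in an exon of Meg3, to miR-370, and holds the 5 precursors opposite Rtl1. Sub-cluster 2 (chr12:110947275-110986159, 38.9 kb) starts 90.7 kb further on and has 60 rows of 33 precursors, from miR-379 to miR-3072. Sub-cluster 3 is miR-1247 alone, with 3 rows at chr12:111516268-111516325, just before Dio3. The reads of 86 rows lie on the plus strand, the strand of Meg3, and miR-1247 itself lies on the minus strand. The table labels 11 rows antisense. For 8 of them the hairpin on the read strand is a known microRNA of the cluster (miR-299a, miR-380, miR-376a or miR-409), and these rows carry that name here. The other 3 lie opposite the annotated hairpin, at miR-337-3p, miR-323-5p and miR-1247-3p.

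The sequences of the members on which the results turn are given below, from RefSeq (GRCm38.p6), 5′ to 3′, with the seed in capitals. Of the 90 rows, 84 matched a RefSeq mature arm. The arms opposite Rtl1 come first, since miR-127-3p alone carries the largest part of the cluster's counts.
miR-431-5p: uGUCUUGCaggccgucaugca
miR-127-3p: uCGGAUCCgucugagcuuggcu
miR-434-5p: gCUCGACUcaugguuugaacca
miR-434-3p: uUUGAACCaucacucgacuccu
miR-136-3p: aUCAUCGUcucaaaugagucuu

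The most abundant arms of sub-cluster 2 follow, with no seed in common.
miR-411-5p: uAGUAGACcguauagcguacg
miR-541-5p: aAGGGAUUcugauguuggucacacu
miR-409-3p: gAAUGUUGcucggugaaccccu
miR-410-3p: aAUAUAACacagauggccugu

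The next arms are those with the largest differences between the fractions, besides miR-431-5p and miR-411-3p.
miR-667-3p: uGACACCUgccacccagcccaag
miR-323-3p: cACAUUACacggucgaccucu
miR-494-3p: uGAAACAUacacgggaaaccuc

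The last set shows near-identical arms, and the arm nearest to Dio3, miR-1247-5p.
miR-379-3p: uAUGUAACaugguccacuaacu
miR-411-3p: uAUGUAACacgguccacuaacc
miR-300-3p: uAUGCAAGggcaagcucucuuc
miR-381-3p: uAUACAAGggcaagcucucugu
miR-1247-5p: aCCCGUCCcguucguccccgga

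The 84 matched arms carried 80 distinct seeds. Only 4 seeds occurred in 2 arms each: AUGUAAC (miR-379-3p and miR-411-3p), GGUAGAC (miR-379-5p and miR-1193-5p), AGGUCAC (miR-370-5p and miR-1193-3p) and GGUUGUC (miR-494-5p and miR-410-5p). Counted from the 5′ end, miR-379-3p and miR-411-3p differ at U10C and U22C, both outside the seed. miR-300-3p and miR-381-3p differ at G4A, U21G and C22U, the first of which lies in the seed. Counts of such pairs are uncertain, because the sources used here do not say how reads that match both were assigned. A first base of U was present in 33 of the 84 arms (39.3%), against 41.3% of 1738 mouse mature sequences in the RefSeq table.

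Small RNA totals ranged from 412739 to 6311625 counts in cardiomyocytes and from 83170 to 1255622 in nonmyocytes. Levels are given as CPM, counts relative to the library total, after scaling with TMM, which adjusts for libraries dominated by a few RNAs. The scaling factors were 0.513 to 0.603 in cardiomyocytes and 1.616 to 1.9 in nonmyocytes. Nonmyocyte library 3, with the smallest total, stands apart. Its level of the cardiomyocyte microRNA miR-133a was 14870 CPM, against 162.1 and 243.1 CPM in the other nonmyocyte libraries. Among the members that it sets apart, log2 fold changes with and without it are given for miR-411-3p, miR-494-3p and miR-667-3p. For the other members named below as high in it, no fold change without it is given. In polyadenylated RNA, the 6 cardiomyocyte marker genes summed to 109200-145500 CPM in cardiomyocytes and 757.3-1017 CPM in nonmyocytes, and the 7 fibroblast marker genes to 180.0-233.4 and 8123-9698 CPM. No marker of either list was at 0 in any cardiomyocyte library.

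The cluster took a far smaller part of cardiomyocyte small RNA than of nonmyocyte small RNA. Member rows took 0.0560%, 0.0654% and 0.0445% of the counts of the 3 cardiomyocyte libraries (mean 0.0553% ± 0.0105, SD, n = 3). In the nonmyocyte libraries they took 7.24%, 9.03% and 7.31% (mean 7.86% ± 1.01, SD, n = 3). The groups did not overlap, and the ratio of the means was 142.2. Exact binomial intervals at 95%, which cover counting error only, were narrow against this gap: the widest in cardiomyocytes ran from 0.0490% to 0.0637%. Without nonmyocyte library 3 the nonmyocyte mean was 8.13%.

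On the TMM scale, which takes out part of the difference in makeup between the fractions, the cluster summed to 966 CPM ± 122 in cardiomyocytes and 44530 CPM ± 3149 in nonmyocytes (SD, n = 3 each), a ratio of 46.1. The cardiomyocyte level was thus 2.17% of the nonmyocyte level. The 7 fibroblast marker genes, measured in polyadenylated RNA, stood at 2.34% of their nonmyocyte level in the cardiomyocyte fraction. In the small RNA libraries themselves, mesenchymal marker microRNAs were less far apart. The 6 on the list summed to 18990-55790 CPM in cardiomyocytes and 91900-112100 CPM in nonmyocytes, and miR-199a with miR-214 to 333.5-1133 and 2862-5257 CPM. Of that list, miR-21 was at 747-2031 and 32520-49460 CPM. The endothelial microRNA miR-126 was higher in cardiomyocytes, at 4428-43360 against 845-3452 CPM. The part of other cell types among the cardiomyocytes in the cluster's counts there was not tested. In such bulk libraries, fewer cells that express a microRNA and less of it per cell cannot be told apart.

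**Figure D1:**
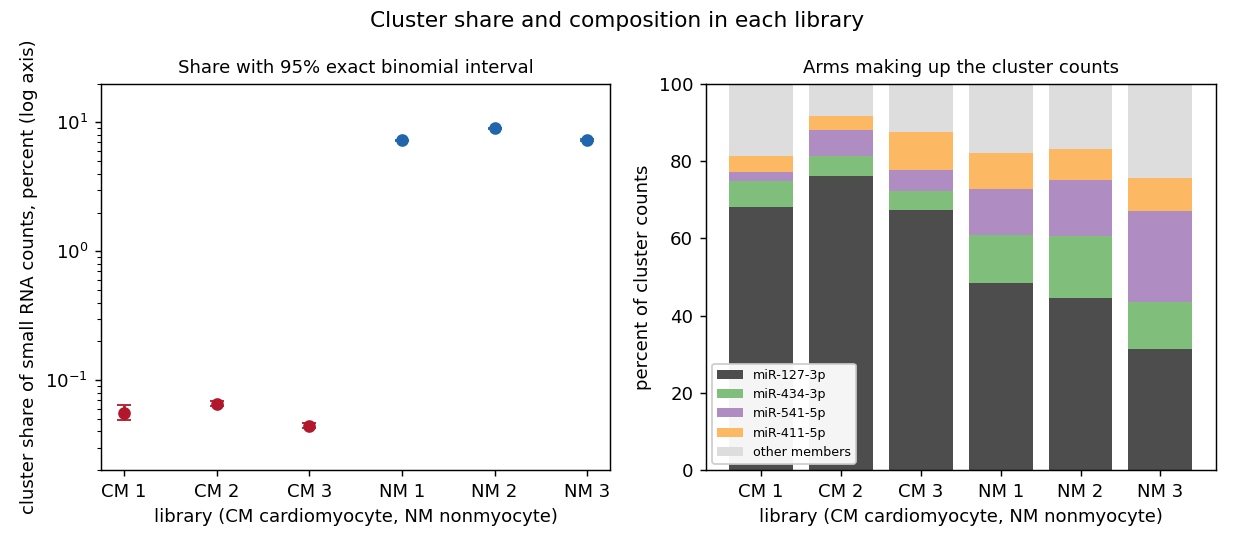
Left, percent of all small RNA counts on the 90 member rows in each library (log axis; bars are 95% exact binomial intervals): the 3 cardiomyocyte libraries lie between 0.0445% and 0.0654%, the 3 nonmyocyte libraries between 7.24% and 9.03%. Right, percent of the cluster's counts from the 4 most abundant arms: miR-127-3p takes 67.4% to 76.1% in cardiomyocytes and 31.4% to 48.4% in nonmyocytes.

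Detection followed the same order. Cardiomyocyte libraries held at least 1 count on 20, 39 and 52 of the 90 rows, although the deepest of them had a total of 6311625. Nonmyocyte libraries held counts on 85, 81 and 62 rows. Over the 3 cardiomyocyte libraries, 31 rows had 0 counts and a further 26 had 1 to 3, and 16 had 10 or more. Only 2 rows had 0 counts in every nonmyocyte library, the opposite-strand rows at miR-337-3p and miR-323-5p, each with 1 count in cardiomyocytes.

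Of the 90 rows, 52 passed the filter on low counts and were tested. All 52 were called lower in cardiomyocytes (edgeR quasi-likelihood test, Benjamini-Hochberg adjusted p from 0.000522 to 0.0459), and 0 higher. Over all 343 arms tested, members included, 52.8% were called, 33.8% lower and 19% higher. Of the 291 other arms, 64 were called lower and 65 higher. Log2 fold changes of the 52, cardiomyocyte minus nonmyocyte, ran from −9.59 to −2.01 with a median of −6.07, or −5.83 with the 4 arms at 0 in cardiomyocytes set to their bound. The median over all arms tested was −0.23, and 0.3 over those outside the cluster. These figures are a description: 48 of the 52 passed the filter only through the nonmyocyte libraries. They were tested because of their nonmyocyte level, a selection that favours arms higher there. The other 4, miR-127-3p, miR-434-3p, miR-541-5p and miR-411-5p, would have passed on their cardiomyocyte counts. With no filter, 73 of the 90 rows were called lower, 0 higher, and 17 were not called, where 25.8% of all 850 rows were called, 16.6% lower and 9.18% higher. Every nonmyocyte library lay above every cardiomyocyte library in 60 of the 90 rows, against 17.4% of the 850.

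The 38 untested rows were rare in both fractions. Their highest summed count was 37 over the nonmyocyte libraries (miR-433-5p and miR-496a-3p) and 9 over the cardiomyocyte libraries (miR-154-5p). The first member by position, miR-770-3p, was among them, with 1 count in cardiomyocytes and 8 in nonmyocytes.

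Along the chromosome, members were not at one level. In nonmyocytes 7 rows stood at 1000 CPM or more, 13 between 100 and 1000, 33 between 10 and 100 and 37 below 10. In cardiomyocytes only miR-127-3p stood above 100 CPM, and 76 rows lay below 5 CPM. Close neighbours could differ widely: miR-409-3p averaged 1318 CPM in nonmyocytes, and miR-412-5p, which starts after 77 intervening bases, 9.38 CPM. Since adapter ligation depends on sequence, levels of different arms are only roughly comparable, unlike those of 1 arm between fractions.

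**Figure D2:**
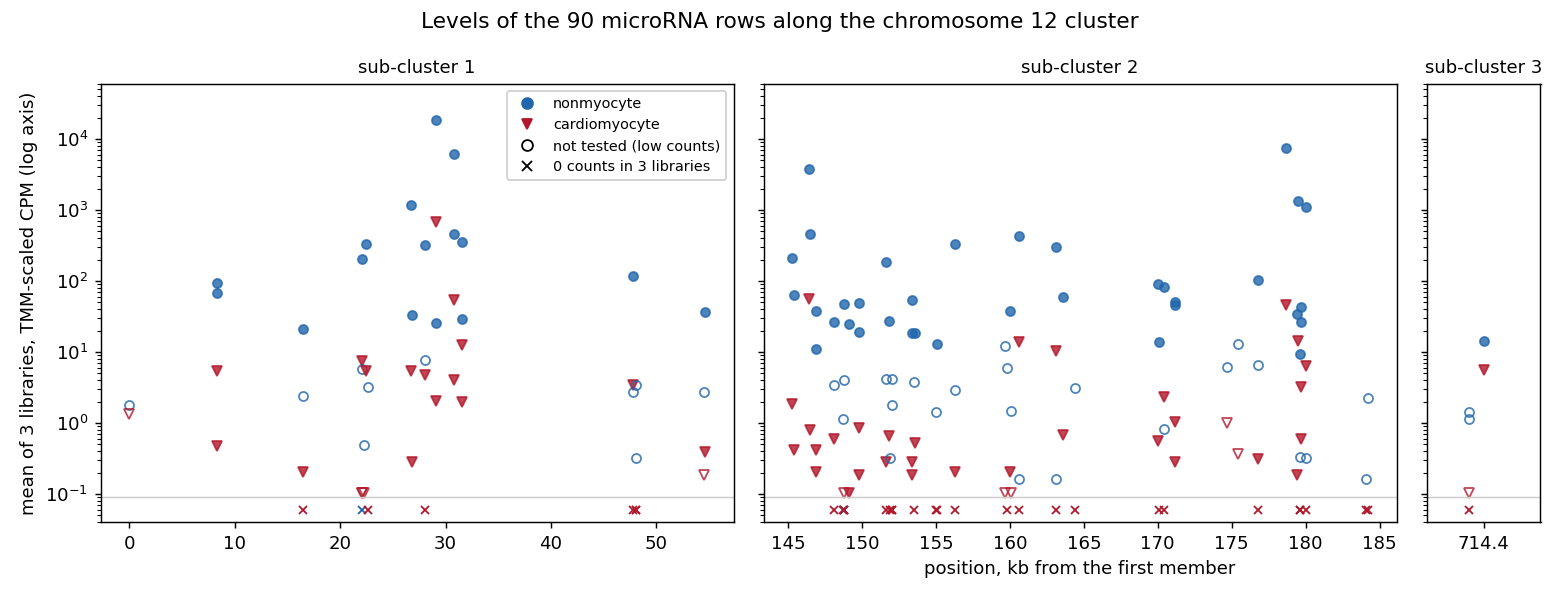
Mean TMM-scaled CPM over 3 libraries (log axis) of each of the 90 rows against its distance in kb from the first member, for nonmyocytes (circles) and cardiomyocytes (triangles); open symbols were not tested and crosses mark rows with 0 counts. The tallest nonmyocyte peaks are miR-127-3p and miR-434-3p in sub-cluster 1 and miR-411-5p and miR-541-5p in sub-cluster 2, and miR-1247-5p in sub-cluster 3 shows the smallest gap between the fractions among the tested rows.

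The arms opposite Rtl1 were the most abundant group. miR-127-3p (chr12:110831098-110831119) was at 630.5, 838.2 and 584.4 CPM in cardiomyocytes and at 21680, 21180 and 12930 CPM in nonmyocytes. Every nonmyocyte library was above every cardiomyocyte library, and by counts the arm ranked 5 to 7 of all rows in nonmyocytes and 73 to 93 in cardiomyocytes. It fell by 4.76 ± 0.50 (SE) on the log2 scale in cardiomyocytes (edgeR, adjusted p = 0.000522), and the log2 fold change was −4.01 without nonmyocyte library 1. It was the one member well measured in cardiomyocytes, with 157, 1524 and 1892 counts.

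miR-434-3p (chr12:110832775-110832796) was at 64.3, 58.3 and 41.7 CPM in cardiomyocytes and at 5620, 7576 and 4977 CPM in nonmyocytes. On the log2 scale it changed by −6.80 ± 0.51 (edgeR, adjusted p = 0.000522), and by −6.20 without nonmyocyte library 1. The groups were far apart in both cases. miR-431-5p was at 8.03, 4.95 and 3.09 CPM in cardiomyocytes and at 861, 1040 and 1634 CPM in nonmyocytes. Its log2 fold change, −7.95 ± 0.70, was among the 5 largest of the cluster, where an arm had to reach 20 CPM in every nonmyocyte library to be ranked.

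The other arms of the same exon moved the same way from lower levels. miR-136-3p averaged 12.7 CPM ± 3.13 in cardiomyocytes and 352 CPM ± 122 in nonmyocytes (SD, n = 3), a log2 fold change of −4.78 ± 0.59. miR-434-5p was at 0, 5.5 and 6.49 CPM in cardiomyocytes and at 685, 420 and 264 CPM in nonmyocytes, which is −6.51 ± 0.86 on the log2 scale. Both changes were smaller without nonmyocyte library 1, at −3.95 and −5.60. Of the 10 rows opposite Rtl1, 9 were tested, with log2 fold changes from −7.95 to −4.20, and miR-433-5p had 37 nonmyocyte counts and 0 in cardiomyocytes.

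Elsewhere in sub-cluster 1, miR-337-5p averaged 7.47 CPM ± 4.05 in cardiomyocytes and 202 CPM ± 60.5 in nonmyocytes (SD, n = 3), and miR-540-3p 5.45 CPM ± 5.75 and 326 CPM ± 84.4. Their log2 fold changes were −4.94 ± 0.67 and −6.43 ± 0.92. The cardiomyocyte level of miR-540-3p was set mostly by library 1 (12.1 CPM from 3 counts), and without that library its log2 fold change was −7.25, and −5.71 without cardiomyocyte library 3. At the Meg3 end, miR-673-5p was called (−4.79 ± 1.03), as was its 3p arm (−6.60 ± 0.81). Sub-cluster 1 as a whole had 16 tested rows with log2 fold changes from −7.95 to −4.20 and a median of −5.74.

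In sub-cluster 2, miR-541-5p (chr12:110980632-110980656) had the highest level in nonmyocytes, and miR-411-5p the highest mean in cardiomyocytes. miR-541-5p was at 20.1, 72.1 and 46.6 CPM in cardiomyocytes and at 5351, 6988 and 9771 CPM in nonmyocytes, with no overlap. It changed by −7.27 ± 0.68 on the log2 scale (edgeR, adjusted p = 0.000522), and by −6.70 without nonmyocyte library 3. Its 3p arm is not among the rows used here.

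miR-411-5p (chr12:110948400-110948420), the second precursor of the sub-cluster, was at 40.2, 39.6 and 86.5 CPM in cardiomyocytes and at 4102, 3708 and 3519 CPM in nonmyocytes. The nonmyocyte libraries were close together, and the groups did not overlap. On the log2 scale the change was −6.07 ± 0.57 (edgeR, adjusted p = 0.000522), and −5.44 without nonmyocyte library 1.

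miR-409-3p was at 28.1, 9.90 and 5.25 CPM in cardiomyocytes and at 1287, 1696 and 970 CPM in nonmyocytes. The log2 change was −6.72 ± 0.83, or −7.45 without cardiomyocyte library 1 and −6.03 without nonmyocyte library 1. miR-410-3p had 0 counts in cardiomyocyte library 1 and was at 10.4 and 8.34 CPM in the others, against 1370, 1055 and 868 CPM in nonmyocytes. It changed by −7.19 ± 0.87 on the log2 scale, and −6.47 without nonmyocyte library 1. Both arms thus stood near 1000 CPM in nonmyocytes. In cardiomyocyte library 1, the shallowest of its fraction, 1 count is worth 4.02 CPM and miR-409-3p had 7 counts.

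The near-identical pair miR-300-3p and miR-381-3p were at similar levels. miR-300-3p was at 24.1, 8.25 and 9.58 CPM in cardiomyocytes and at 536, 458 and 305 CPM in nonmyocytes. miR-381-3p was at 8.03, 6.05 and 16.7 CPM and at 339, 304 and 244 CPM. Their log2 fold changes were −5.10 ± 0.68 and −4.78 ± 0.64, or −4.26 and −4.15 without nonmyocyte library 1. Sub-cluster 2 had 35 tested rows with log2 fold changes from −9.59 to −4.39 and a median of −6.33. miR-495-3p, one of the arms linked to cardiomyocyte proliferation, had 0 counts in cardiomyocytes and 44 in nonmyocytes, at least 24.1-fold higher there. miR-134-5p, known from neurons for restraining dendritic spine growth, averaged 2.32 CPM ± 1.51 and 82.9 CPM ± 12.6 (SD, n = 3), with a log2 fold change of −5.46 ± 0.69.

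The largest differences belonged to arms almost absent from cardiomyocytes. miR-667-3p had 0, 0 and 2 counts there, and stood at 152, 237 and 617 CPM in nonmyocytes. From the summed counts the nonmyocyte level was 533 times the cardiomyocyte level, with a 95% counting interval from 147 to 4408. Its fitted log2 fold change of −9.59 ± 1.16 moved to −8.64 without nonmyocyte library 3 and −11.4 without cardiomyocyte library 3, which holds both of its counts. miR-323-3p had 0 counts in all 3 cardiomyocyte libraries and stood at 27.1, 59.4 and 54.3 CPM in nonmyocytes, at least 68.6-fold higher when 3 counts over the group are taken as the floor. At this depth a lower cardiomyocyte level could not be measured.

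miR-494-3p and miR-411-3p also belong here, but their nonmyocyte means were set by 1 library. miR-494-3p was at 29.6, 51.7 and 468 CPM in nonmyocytes and had 0, 1 and 1 counts in cardiomyocytes, a ratio of 151 with a 95% counting interval from 41.1 to 1253. miR-411-3p was at 82.3, 113 and 1187 CPM in nonmyocytes and at 0, 0.550 and 1.85 CPM in cardiomyocytes. Nonmyocyte library 3 was high in both, and without it their log2 fold changes were −6.26 in place of −8.56 and −6.07 in place of −8.51, both still called by edgeR (adjusted p = 0.000183 for each). Without cardiomyocyte library 3 the value for miR-411-3p was −9.49.

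Nonmyocyte library 3 differed from the others in further members. Of 20 members with at least 20 counts there, 7 lay more than 2-fold above both other nonmyocyte libraries, against 32 of 135 other arms. The widest departure was miR-379-5p, at 29.6, 15.3 and 583 CPM. The remaining ones, besides miR-411-3p, miR-494-3p and miR-667-3p, were miR-377-3p, miR-382-5p and miR-433-3p, each 2.65 to 2.87 times the higher of the other libraries. The summed cluster share of this library was within the range of the others, and its miR-133a level is given above. Without it, 59 members were tested and 58 were called.

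**Figure D3:**
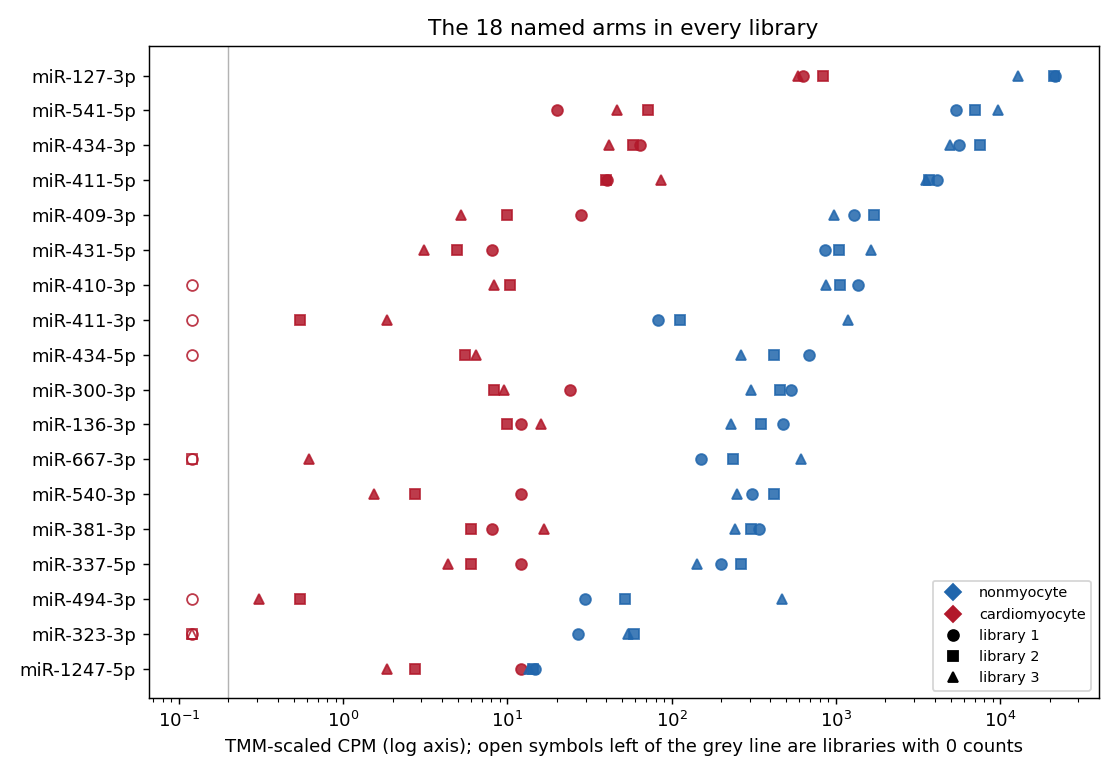
TMM-scaled CPM (log axis) of 18 member arms in each of the 6 small RNA libraries, ordered by nonmyocyte mean; colour gives the fraction, symbol the library, and open symbols at the left edge are libraries with 0 counts. In every arm the 3 nonmyocyte libraries lie to the right of the 3 cardiomyocyte libraries, by the narrowest margin in miR-1247-5p. The arms were chosen by level or fold change, and the same order held in 36.4% of all 343 arms tested. Nonmyocyte library 3 (triangle) stands apart in miR-411-3p and miR-494-3p.

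Next to Dio3, miR-1247-5p was the exception in size. It was at 12.1, 2.75 and 1.85 CPM in cardiomyocytes and at 14.8, 14.4 and 13.6 CPM in nonmyocytes, from 14 and 47 counts in all. Its log2 fold change of −2.01 ± 0.71 was the smallest of the tested members and just passed the threshold (edgeR, adjusted p = 0.0459). The call was lost under 9 of the alternative settings, among them the fit with no filter (adjusted p = 0.0916) and DESeq2 (adjusted p = 0.0950). The cardiomyocyte library with the highest level is the shallowest, with 3 counts. Whether this arm differs from the rest of the cluster in its change was not tested.

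Both fractions drew on largely the same arms. Of the 12 highest arms in each fraction, 8 were in both lists: miR-127-3p, miR-434-3p, miR-136-3p, miR-411-5p, miR-300-3p, miR-541-5p, miR-409-3p and miR-410-3p. The lower places of the cardiomyocyte list rest on few counts. miR-540-3p and miR-1247-5p were on it with 13 and 14 counts, of which 3 each in the shallow library 1 gave 12.1 CPM. miR-434-5p, with 31 counts but 0 in that library, was not. The share of the cluster's counts was compared for the 4 most abundant arms. miR-127-3p made up 68.0%, 76.1% and 67.4% of the cluster's counts in cardiomyocytes and 48.4%, 44.6% and 31.4% in nonmyocytes. For miR-434-3p the order was reversed (mean 5.68% ± 1.11 against 13.5% ± 2.11, SD, n = 3), as it was for miR-541-5p (4.70% ± 2.27 against 16.8% ± 6.14). For each of these arms the groups did not overlap, which in an exact two-sided permutation test of 3 against 3 gives the smallest p it allows, 0.1. For miR-411-5p the groups overlapped (5.97% ± 3.49 against 8.50% ± 0.679, exact permutation p = 0.4). Adjusted over these 4 comparisons, the first value becomes 0.133 and this design cannot reach 0.05. Shares of 1 total are not independent of each other.

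By sub-cluster, sub-cluster 1 held 82.1% ± 4.32 of the cluster's counts in cardiomyocytes and 62.4% ± 9.02 in nonmyocytes, and sub-cluster 2 held 17.4% ± 4.64 and 37.6% ± 9.03 (SD, n = 3). Within sub-cluster 1, miR-127-3p alone held 70.5% ± 4.86 and 41.4% ± 8.94 of the cluster's counts. The difference between the sub-clusters thus includes that of this single arm, and shares without it are not given. In nonmyocyte library 3 sub-clusters 1 and 2 were nearly even, at 52.0% and 48.0%.

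Arm choice was mostly one-sided. Both arms were listed for 38 precursors, and in nonmyocytes the 3p arm was the larger in 23 and the 5p arm in 15. Among the 28 precursors with at least 100 nonmyocyte counts, 19 gave over 90% of their counts from 1 arm. miR-127 gave 99.8% of its nonmyocyte counts and 99.8% of its cardiomyocyte counts from the 3p arm, with 8 and 3573 counts on the 5p and 3p arm in cardiomyocytes. miR-431 and miR-337 leaned to the 5p arm in both fractions, with 2.81% and 2.50% of nonmyocyte counts on the 3p arm. Each of the 10 precursors with at least 20 cardiomyocyte counts had the same larger arm in both fractions. Among all 33 precursors with any cardiomyocyte count and unequal arms there, 3 had the other arm as the larger one: miR-379, miR-666 and miR-376b. miR-379, with 19 cardiomyocyte counts, gave 21.1% of them from the 3p arm (exact 95% interval 6.05% to 45.6%), against 50.6% of the pooled nonmyocyte counts. miR-666 had only 3 cardiomyocyte counts, 2 of them from the 3p arm, against 18.7% in nonmyocytes.

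A test of arm balance (edgeR diffSpliceDGE) could be made for 14 member precursors, and 0 were called, where 10.8% of the 102 precursors tested were called. At an unadjusted p under 0.05 there was 1, miR-411 (adjusted p = 0.201), and 0 in the arm-level form of the test. That precursor again shows nonmyocyte library 3: its 3p arm made up 1.97%, 2.96% and 25.2% of counts in nonmyocytes and 1.90% of the pooled cardiomyocyte counts (exact 95% interval 0.766% to 3.87%). miR-379 leaned to the other arm in that library, with 64.3%, 73.3% and 14% from the 3p arm. Without library 3 the adjusted p of edgeR diffSpliceDGE was 0.836 for miR-411 and 0.174 for miR-379 (0.0255 unadjusted), in place of 0.201 and 0.788. At these counts a modest shift of arm balance in cardiomyocytes was not detectable for most precursors.

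Over the whole cluster, 3p arms held 84.7% ± 3.28 of counts in cardiomyocytes and 68.4% ± 7.53 in nonmyocytes (SD, n = 3), and miR-127-3p is itself a 3p arm. Tested 5p rows (22) had a median log2 fold change of −5.53, and tested 3p rows (30) of −6.38. A first base of U was found in 12 of 27 larger arms (44.4%) and in 8 of 28 smaller arms (28.6%) of the precursors with at least 100 nonmyocyte counts.

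**Figure D4:**
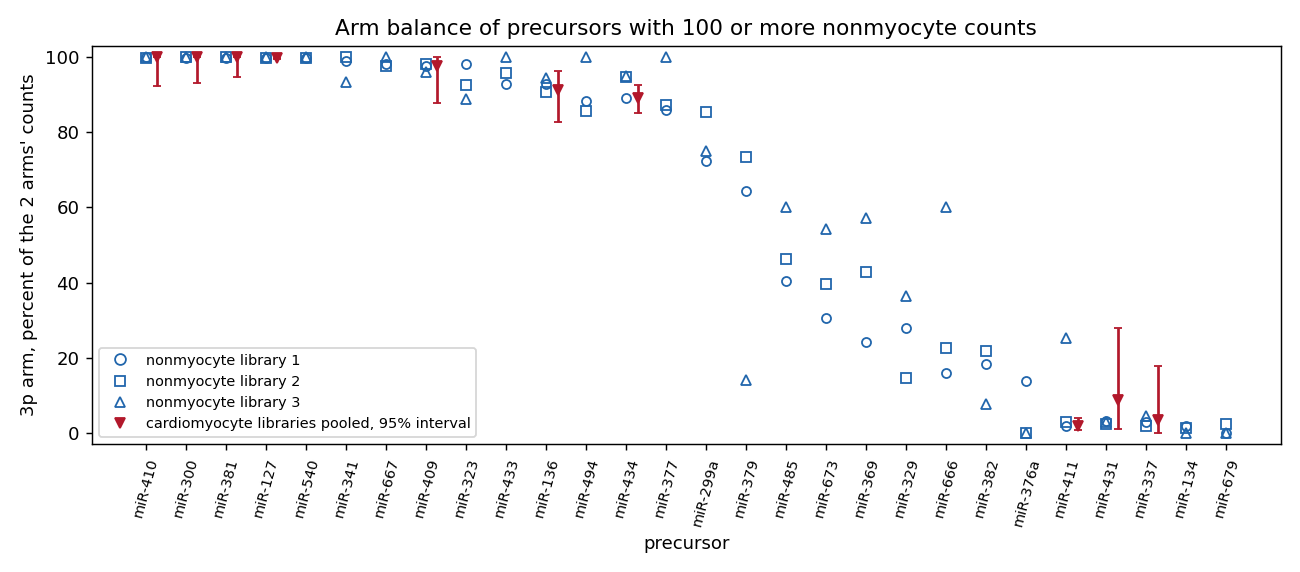
Percent of a precursor's counts from its 3p arm in each nonmyocyte library (open symbols) and in the pooled cardiomyocyte libraries (triangles with exact 95% intervals, shown where there were at least 20 counts), for 28 precursors ordered by their pooled nonmyocyte value. Most precursors sit near 100% or 0%, the cardiomyocyte values shown sit on the same side, and library 3 stands away from the others in miR-379 and miR-411.

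Outside the domain, 6 rows of chromosome 12 were tested, of which 3 rose in cardiomyocytes and 0 were called lower. On the Dlk1 side, miR-345 rose in cardiomyocytes with both arms (log2 fold changes 1.94 ± 0.58 for 5p and 1.60 ± 0.51 for 3p, edgeR adjusted p = 0.0257 and 0.0339). miR-342-3p was at −1.40 ± 0.74 and did not pass the test (edgeR adjusted p = 0.154), nor without nonmyocyte library 3 (−0.46 ± 0.69, edgeR adjusted p = 0.589). Past Dio3, miR-203-3p rose by 3.54 ± 1.23 on the log2 scale (edgeR adjusted p = 0.0444), and by 5.18 ± 0.98 without nonmyocyte library 3 (edgeR adjusted p = 0.000837). Both arms of miR-345 were called without that library too, at 2.52 ± 0.69 and 1.84 ± 0.67 (edgeR adjusted p = 0.00859 and 0.0351).

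The polyadenylated RNA counts listed for the domain went in the same direction and were low. Many models of the range share exon bases and are listed at 0, Meg3 among them. The sums may therefore leave out reads and do not give the level of the whole domain. Reads on all genes and transcript models inside the range summed to 2, 2 and 12 counts in cardiomyocytes and to 200, 139 and 156 in nonmyocytes, that is 0.386, 0.103 and 0.579 CPM against 14.9, 13.4 and 12.1 CPM. The groups did not overlap, and the cardiomyocyte libraries had totals of up to 26851830 counts. Of the domain genes Dlk1, Meg3, Rtl1, Rian, Mirg, Dio3 and Dio3os, 4 are listed by symbol in the table used here, and only Rtl1 had enough counts for the test.

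Rtl1, a retrotransposon-derived protein gene, had 1, 1 and 2 counts in cardiomyocytes and 19, 25 and 22 in nonmyocytes. It was called lower in cardiomyocytes, at −4.19 ± 0.82 on the log2 scale (edgeR, adjusted p = 0.000609), where 63.7% of 14734 genes tested were called, 32.1% lower and 31.6% higher. The libraries do not keep the strand, so reads of Rtl1 and of the transcript opposite, which carries miR-127 and its neighbours, cannot be told apart. Dio3, the thyroid hormone-inactivating deiodinase, had 0, 1 and 0 counts against 23, 6 and 11, a ratio of 49.2 with a 95% counting interval from 8.35 to 1993. It did not pass the filter on low counts.

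Dlk1, a Notch-related transmembrane protein, had 0 counts in cardiomyocytes and 3, 3 and 0 in nonmyocytes, with 84.4% of its exon bases shared with another model. Meg3, the first of the maternal noncoding RNAs, is listed at 0 in all 6 libraries. All of its exon bases are shared with other models of the authors' annotation, and how reads on shared bases were counted is not given in the sources used here, so the value says nothing of its expression. The same doubt holds for Dlk1, for the 44% of Rtl1 exon bases that are shared, and for other models listed at 0 that overlap one another. Of 73 noncoding models in the range that carry only a catalogue number, 54 had 0 counts throughout and 2 were tested. n269365 (chr12:110792096-110795554), within the span of Meg3, had 0 counts in cardiomyocytes and 35, 38 and 36 in nonmyocytes, at least 44.7-fold higher there (edgeR adjusted p = 6.1e-05). n286071 (chr12:110871007-110874483), between sub-clusters 1 and 2, had 1, 0 and 6 counts against 30, 15 and 36. Its log2 fold change was −3.73 ± 0.90 (edgeR adjusted p = 0.0027), or −3 without cardiomyocyte library 2 and −5.20 without cardiomyocyte library 3.

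**Figure D5:**
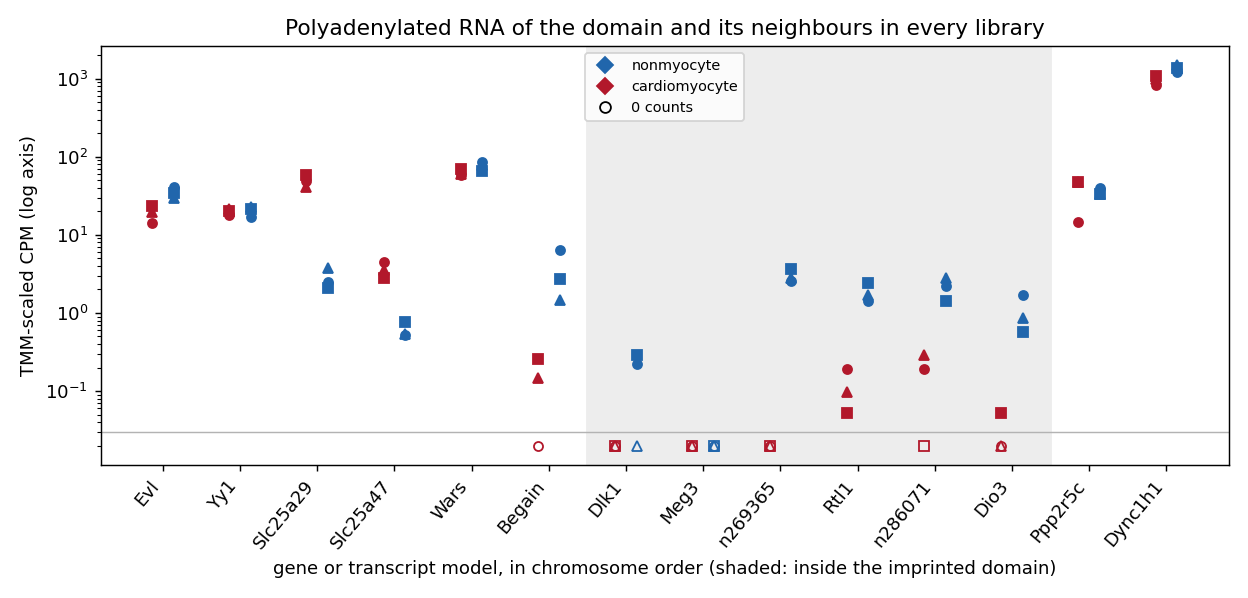
TMM-scaled CPM (log axis) of polyadenylated RNA in each library for genes and models of the domain (shaded) and of its flanks, in chromosome order; open symbols at the bottom are libraries with 0 counts. Rtl1, n269365, n286071 and Dio3 are higher in every nonmyocyte library, Meg3 is at 0 throughout, and among the flanking genes only Begain shows a gap of the same direction and of like size.

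The flanking genes went in both directions. Of 10 flanking genes listed, 8 were tested, 3 were called lower in cardiomyocytes and 2 higher, against 32.1% and 31.6% of all genes tested. Begain, the nearest neighbour on the Dlk1 side with a value, fell by 4.33 on the log2 scale (± 0.83 SE, edgeR adjusted p = 0.000522), and its log2 fold change was −3.56 without nonmyocyte library 1. Evl fell by 0.86 and Dync1h1 by 0.49, the latter no longer called when cardiomyocyte library 1 or 3 or nonmyocyte library 2 or 3 was left out. The carrier genes Slc25a29 and Slc25a47 rose by 4.13 ± 0.28 and 2.53 ± 0.56 (edgeR adjusted p = 3.69e-08 and 0.00149). Yy1, Wars and Ppp2r5c were at −0.02, −0.27 and 0.08 and did not pass the test, Degs2 had too few counts, and Wdr25 is listed at 0 with 98.7% of its exon bases shared.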

How the data were processed

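The authors deposited whole-number counts per mature microRNA arm and per gene, with 1 column per library and no normalisation. Per the submitters' processing notes, Bowtie, TopHat 1.3.0, HTSeq, DESeq and edgeR were used on builds mm9 and NCBIM37, with no roles given. No source used here states the counting rules. The small RNA libraries have no molecular identifiers, so intervals cover counting error only.

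Here, edgeR 4.0.16 (R 4.3.3) fitted each whole table of counts: filterByExpr with a minimum count of 10, TMM scaling, a robust quasi-likelihood test of the 2 fractions and Benjamini-Hochberg adjustment over all rows tested, with calls at an adjusted p under 0.05. The filter corresponded to 11.1 CPM for small RNA before TMM scaling. Arm balance was tested with diffSpliceDGE. The functions were tested on simulated data. Alternatives were DESeq2 1.42.0, other scalings, no filter, a replicate block and leaving out each library.

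Named arms were the 12 highest of each fraction and the 5 with the largest fold change among arms reaching 20 CPM in each library of the higher fraction. Domain genes, flanking genes, opposite-strand rows and the first and last members were also named. A few further members were named after their values were seen: miR-379, miR-412, miR-495, miR-134, miR-673 and those high in nonmyocyte library 3. The members and lists were chosen with earlier results of these data known. Exon positions of domain genes and models came from the authors' mm9 annotation.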

Additional observations from a re-analysis of the deposited data

How the results depend on the processing

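The 52 member calls became 51 to 73 under the 8 other settings and 46 to 59 when 1 library was left out, with 0 members called higher in any of them. These counts too are a description. All settings but the one with no filter kept the filter on low counts. In the main fit, 48 of the 52 passed it only through the nonmyocyte libraries. Arm balance gave 0 calls under all of its alternatives. Over the 18 named arms, 243 values kept direction and call, and 9 lost the call, all of miR-1247-5p (adjusted p of edgeR or DESeq2 from 0.0538 to 0.293). With library totals alone as the scale, the median log2 fold change of all arms moved from −0.23 to −1.90 and that of the tested members from −6.07 to −7.70, and arms called higher fell from 35.9% to 13.1% of calls. The cluster share was 0.108% in cardiomyocytes and 10.4% in nonmyocytes with the 3 most abundant arms left out of the total.

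Leaving out nonmyocyte library 1 moved 10 named arms by more than 1.5-fold, and cardiomyocyte libraries 1 and 3 and nonmyocyte library 3 moved 3, 4 and 3. Those without a value above were miR-1247-5p, at −2.65, −1.34 and −1.31 without cardiomyocyte library 1, cardiomyocyte library 3 and nonmyocyte library 1.

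In polyadenylated RNA, the 1 domain gene called became 2, with Dio3, under no filter, and 1 to 2 when 1 library was left out. The 2 noncoding models called became 6 with no filter. Counting calls among these models, in the main fit too, was chosen after seeing the data. Ppp2r5c turned to −0.04 with upper quartile scaling, −0.63 with library totals, −0.05 with the replicate block, and −0.12 and −0.13 without cardiomyocyte libraries 2 and 3; over all left-out libraries it ran from −0.13 to 0.46, the latter called without cardiomyocyte library 1 (edgeR adjusted p = 0.024). Yy1 turned to 0.05 with no filter and to 0.08, 0.06 and 0.13 without cardiomyocyte library 1 and nonmyocyte libraries 2 and 3, in a range from −0.08 to 0.13. Library totals alone moved the median of all genes from −0.02 to −0.70, and Yy1 (−0.70) and Wars (−0.95) were then called. Neither was called in the main comparison, and the cause was not tested.

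Replicate numbers gave no clear pairing of the libraries. In their deviations from the group means, same-numbered small RNA libraries correlated at 0.0544, −0.110 and 0.249. The highest correlations with another number were 0.369, 0.0817 and −0.0487. Same-numbered polyadenylated RNA libraries correlated at 0.231, 0.0597 and 0.164, against −0.107, 0.0787 and 0.113. The same number was the closer one in some cases only, so these values do not decide whether the libraries are paired. The replicate block gave 51 member calls, 0 calls of arm balance and 1 domain gene. Depth limits nonmyocyte library 3 most, where 1 count is worth 6.78 CPM on the scaled basis, and 1 count in cardiomyocyte library 1 is worth 4.02 CPM. The values without nonmyocyte library 3 for rows outside the cluster and for the arm balance of miR-411 and miR-379 were added after seeing the data.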
